A study of Homo sapiens with 4 samples.

Results

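A set of 10 genes of collagen crosslinking and maturation was described in a human liver tumour cell line, PLC8024, as controls and after a drug. They are the 5 lysyl oxidase genes (LOX, LOXL1, LOXL2, LOXL3 and LOXL4), the 3 lysyl hydroxylase genes (PLOD1, PLOD2 and PLOD3), the collagen chaperone gene SERPINH1 and CRTAP, and were found by symbol as 10 of the 26603 genes of the deposited table. Of the 4 messenger RNA libraries 2 carry the label control and 2 the label drug. What the drug was, how much was given and for how long is not in the labels, nor is any vehicle, and they leave unsaid whether each library had its own culture. Any p-value here therefore reflects spread among 4 libraries that may be technical. The gene families were chosen by the measured FPKM of LOX and LOXL4 in these same libraries, which differ in opposite directions. The drug and control values of all 10 genes are therefore given as a description, with no p-value. Whether a test called any of the 10 is stated below, but is no support for a difference. The same holds for the limma intervals given with these genes. They are not adjusted for the number of genes tested, so an interval can exclude equal groups for a gene that was not called.

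Collagen chains are modified in the endoplasmic reticulum before they are secreted. There the PLOD enzymes, which need iron, ascorbate and 2-oxoglutarate, hydroxylate lysines, SERPINH1 (also called HSP47) binds the folded triple helix, and CRTAP works in a complex that hydroxylates certain prolines. Outside the cell, lysyl oxidases, which carry copper and a quinone cofactor, oxidise lysine and hydroxylysine side chains of collagen and elastin so that neighbouring chains crosslink. In liver this matrix is laid down mainly by stellate cells and fibroblasts during scarring, and tumour cells can secrete lysyl oxidases as well. LOX and PLOD2 are textbook targets of hypoxia-inducible factors, and SERPINH1 is a textbook target of heat shock factor.

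The stretches before the RefSeq starts of LOX, PLOD2 and LOXL4 are shown because LOX and PLOD2 were lower with drug while LOXL4 was higher. RefSeq sequence of GRCh38.p14 was used for the 9 genes with an entry, all but LOXL2. Capitals mark each match, on either strand, to the hypoxia response core ACGTG, which reads CACGT on the other strand. In these 3 stretches bases inside an exon of GENCODE 29 were left out, and the PLOD2 stretch lies inside the span of a longer GENCODE transcript of that gene. LOX is shown for chr5:122078361-122078509 (minus strand, bases -250 to -102 from the start), PLOD2 for chr3:146161185-146161434 (minus strand, bases -250 to -1) and LOXL4 for chr10:98268251-98268444 (minus strand, bases -250 to -57).
LOX: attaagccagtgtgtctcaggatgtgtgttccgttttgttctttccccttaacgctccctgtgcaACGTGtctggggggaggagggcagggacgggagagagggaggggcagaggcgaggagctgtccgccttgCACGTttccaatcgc
PLOD2: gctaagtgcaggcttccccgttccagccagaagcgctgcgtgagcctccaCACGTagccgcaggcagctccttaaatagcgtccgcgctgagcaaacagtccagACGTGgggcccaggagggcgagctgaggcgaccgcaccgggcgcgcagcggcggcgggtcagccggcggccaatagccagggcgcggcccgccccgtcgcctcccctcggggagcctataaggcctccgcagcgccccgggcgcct
LOXL4: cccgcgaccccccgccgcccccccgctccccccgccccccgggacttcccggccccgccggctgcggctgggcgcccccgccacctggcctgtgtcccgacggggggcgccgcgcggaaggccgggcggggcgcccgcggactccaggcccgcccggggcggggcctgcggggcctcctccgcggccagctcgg

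The window from 250 bases before to 50 after the most upstream RefSeq start of LOX held 4 ACGTG matches, of which 2 lie in the stretch shown, and that of PLOD2 held 2. The windows at the other 2 RefSeq starts of LOX overlap and held 1 match, the same site in both. The LOXL4 window held 0. Of 35116 RefSeq windows of 300 bases, 21.4% held at least 1 ACGTG match, 8.82% at least 2 and 0.843% at least 4, where a CACGTG counts as 2 overlapping matches. At their most upstream starts SERPINH1 held 1 match, after the start, and LOXL1, LOXL3, PLOD1, PLOD3 and CRTAP held 0. The same SERPINH1 match lies before a second RefSeq start of that gene, at bases -184 to -180 from it. At the most upstream starts the related core GCGTG, present in 36.5% of windows, was found 2 times at PLOD1 and 1 time each at PLOD2 and CRTAP. In windows at further RefSeq starts it was found 2 times at SERPINH1 and 1 time at LOXL3. At the other 2 starts of LOX it was found 1 time, again as the same site in both windows. The AP-1 motif TGANTCA (7.71% of windows) was found in none of the 9 genes. The window at the most upstream SERPINH1 start held a heat shock element of 3 units (TTC, any 2 bases, GAA, any 2 bases, TTC). It ran from base -76 to -64, and 0.490% of windows hold such an element on either strand. It is shown in capitals within 30 bases of chr11:75562169-75562198 (plus strand), which lie within the GENCODE 29 span of SERPINH1, where 197 of the 250 bases before this start are exonic.
SERPINH1: ttccaactTTCCAGAAGTTTCtcgggacgg

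A motif match describes the letters only and does not show binding. PLOD1 also held a GAANNTTC, a shorter heat shock unit found in 6.77% of windows, just after its start.

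**Figure D1:**
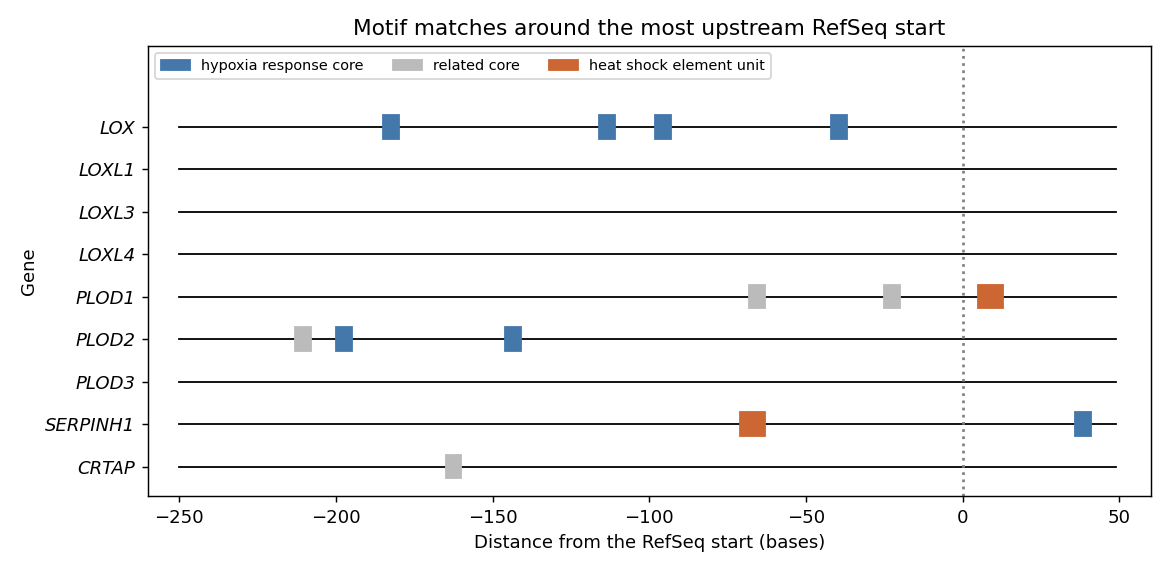
Motif matches around the most upstream RefSeq start of the 9 genes with an entry, by distance from the start in bases (dotted line), with blue for the hypoxia response core, grey for the related core and orange for the heat shock unit. LOX carries 4 blue matches and PLOD2 carries 2, while LOXL4, LOXL1, LOXL3 and PLOD3 carry no match of these 3 kinds.

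Reads per library totalled between 28526098 and 40279560. Of 12 fixed markers of liver epithelial cells 8 reached 1 FPKM and AFP, APOB, TTR and EPCAM stayed below it. By limma 3 of the 8 were called higher with drug (KRT8, KRT18 and HNF4A) and 3 lower (ALB, TF and APOA1). Among all tested genes 7.78% were called higher and 6.02% lower. HNF4A and APOA1 lost their limma call with any 1 library left out, and TF and KRT8 with some libraries left out. A second test, edgeR, did not call APOA1. KRT18, a cytokeratin gene, was at 158 and 164 FPKM in the controls against 221 and 233 FPKM with drug, and ALB, the albumin gene, at 3.15 and 3.23 FPKM against 1.31 and 1.32 FPKM. None of the 10 fibroblast and stellate markers in the table reached 1 FPKM. Their summed level was 0.840 and 0.789 FPKM in the controls against 1.23 and 1.25 FPKM with drug, with COL3A1 and PDGFRA at 0 in some libraries. Endothelial markers summed to 4.73 and 4.22 FPKM in the controls against 2.15 and 2.26 FPKM with drug, nearly all PECAM1, while VWF was at 0 in 3 of the 4. Among blood markers LYZ alone passed 1 FPKM, at 181 and 183 FPKM in the controls against 283 and 287 FPKM with drug, and CD14 stayed below it. Of the 13 fibroblast and stellate, 7 endothelial and 7 blood markers listed, 10, 5 and 3 were in the table. ACTA2, THY1, FAP and PTPRC were among those not found there by symbol. The part of these marker differences in the results was not tested.

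Of the 10 genes, 8 had a mean of at least 1 FPKM (reads scaled to gene length and library size) in a group and entered the test across all genes, while LOXL1 and LOXL3 stayed below. At a limma adjusted p under 0.05, which 13.8% of the 11227 tested genes passed, LOX, PLOD2 and CRTAP were called lower and LOXL4 and SERPINH1 higher. That is 3 lower and 2 higher of 8, beside 6.02% and 7.78% of all tested genes, and nothing is read from it since the genes were chosen on this contrast. With any 1 of the 4 libraries left out the call was lost for PLOD2, CRTAP and SERPINH1. It remained for LOX and LOXL4, which is no support for them, since the families were chosen by their values. With edgeR on recovered reads 7 of 9 tested members were called, beside 13.0% of 16559 genes (5.76% higher, 7.22% lower), the other two being PLOD1 as lower and PLOD3 as higher. In 9 of 10 genes the drug and control libraries did not overlap, 4 above and 5 below. Non-overlap is common here, at 63.5% of tested genes (40.3% above, 23.3% below) and 44.8% of all genes. In bulk RNA, fewer cells expressing a gene and less RNA of it per cell cannot be told apart.

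**Figure D2:**
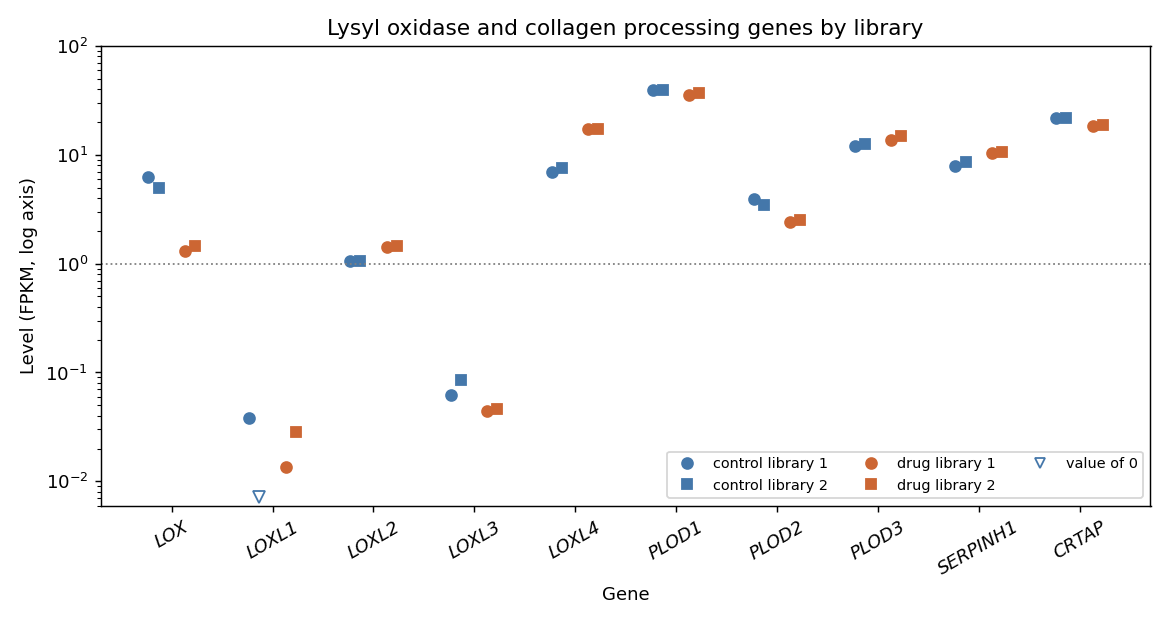
Level of each gene in FPKM on a log axis, with 1 point per library (blue control, orange drug, circle library 1, square library 2). The dotted line marks 1 FPKM and the open triangle a value of 0; LOX and LOXL4 separate most, and LOXL1 and LOXL3 lie below 0.1 FPKM.

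LOX encodes the founding lysyl oxidase, secreted as a proenzyme (ENSG00000113083, GRCh38 chromosome 5, 122063195 to 122078360, minus strand). Its level was 6.31 and 4.94 FPKM in control libraries 1 and 2 and 1.30 and 1.44 FPKM in drug libraries 1 and 2. Both drug libraries lay well below both controls, and the control libraries differed from each other by 1.28-fold. In recovered reads the gene had 1007 and 1067 in the controls against 292 and 312 with drug. Mean FPKM was 4.11-fold lower with drug (5.62 ± 0.969 against 1.37 ± 0.103, SD, n = 2 libraries each). On the log2(FPKM + 1) scale, which understates the change of low genes, the difference was -1.48 ± 0.11 SE (95% interval -1.76 to -1.19). The families were chosen by the values of LOX and LOXL4, so the intervals of both describe spread only. LOX was place 5 among all 11227 tested genes when ordered from the strongest fall. LOX shares 138 exonic bases with SRFBP1 on the opposite strand, which was at 8.67 and 8.47 FPKM in the controls against 9.16 and 9.50 FPKM with drug.

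LOXL4 encodes a lysyl oxidase with scavenger receptor cysteine-rich domains ahead of the catalytic domain (ENSG00000138131, GRCh38 chromosome 10, 98247690 to 98268250, minus strand). It stood at 6.96 and 7.62 FPKM in the controls against 17.4 and 17.3 FPKM with drug, on 714, 1058, 2521 and 2404 recovered reads. Both drug libraries were above both controls and nearly equal to each other. The mean was 2.38-fold higher with drug (17.3 ± 0.0881 against 7.29 ± 0.466 FPKM), a difference of 1.15 ± 0.05 SE on the log2(FPKM + 1) scale (95% interval 1.02 to 1.27) and place 20 among tested genes ordered from the strongest rise. An antisense gene, AL139241.1, shares 152 exonic bases with LOXL4 and was at 0.240 and 0.133 FPKM in the controls against 0.383 and 0.332 FPKM with drug. Whether the authors' counting used strand is not given in the sources used here.

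LOXL2 (ENSG00000134013), whose product carries the same scavenger receptor domains, was far lower than either. Its level was 1.06 and 1.06 FPKM in the controls against 1.41 and 1.46 FPKM with drug (181, 246, 340 and 338 recovered reads). Drug libraries were above controls, by a log2(FPKM + 1) difference of 0.24 ± 0.08 SE (95% interval 0.03 to 0.45), and the gene was called by neither limma nor edgeR. It shares 120 exonic bases on the same strand with ENTPD4, which was at 8.03 to 8.50 FPKM over the 4 libraries, so some reads could belong to either.

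LOXL1, which is known for elastic fibre upkeep, and LOXL3, another scavenger receptor family member, were barely detected. They lie on GRCh38 chromosome 15, 73925989 to 73952137 (ENSG00000129038, plus strand), and chromosome 2, 74532414 to 74555690 (ENSG00000115318, minus strand). LOXL1 had 4 and 0 reads in the controls against 2 and 4 reads with drug, and its groups overlapped. Summed over a group this is 4 reads against 6 (exact 95% Poisson intervals 1.09 to 10.2 and 2.20 to 13.1, counting error only). Its antisense neighbour LOXL1-AS1, sharing 335 exonic bases, was at 0.0517 and 0.0669 FPKM in the controls against 0 and 0.00477 FPKM with drug. LOXL3 shares 625 exonic bases with HTRA2 on the opposite strand (4.27 to 5.16 FPKM over the 4 libraries). It was at 0.0621 and 0.0860 FPKM in the controls against 0.0439 and 0.0458 FPKM with drug, on 23 control and 16 drug reads in all (intervals 14.6 to 34.5 and 9.15 to 25.98). A difference in either gene was not detectable at this depth.

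Because FPKM is per length, the 5 lysyl oxidase genes can be added. Their sum was 14.4 and 13.7 FPKM in the controls against 20.2 and 20.2 FPKM with drug, 1.44 times higher with drug. The make-up of this sum differed as well, which follows in part from choosing the families by the opposite differences of LOX and LOXL4. LOX made up 43.7% and 36.0% of it in control libraries but 6.42% and 7.12% in drug libraries. LOXL4 made up 48.2% and 55.6% in control libraries and 86.3% and 85.3% in drug libraries, a mean gain of 33.9 percentage points (51.9% ± 5.20 to 85.8% ± 0.698, SD, n = 2). The share of LOXL2 was between 6.99% and 7.77% in all 4 libraries. The ratio of LOXL4 to LOX went from 1.10 and 1.54 in control to 13.4 and 11.99 in drug libraries. Control libraries thus held LOX and LOXL4 at similar levels, and drug libraries held mainly LOXL4.

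**Figure D3:**
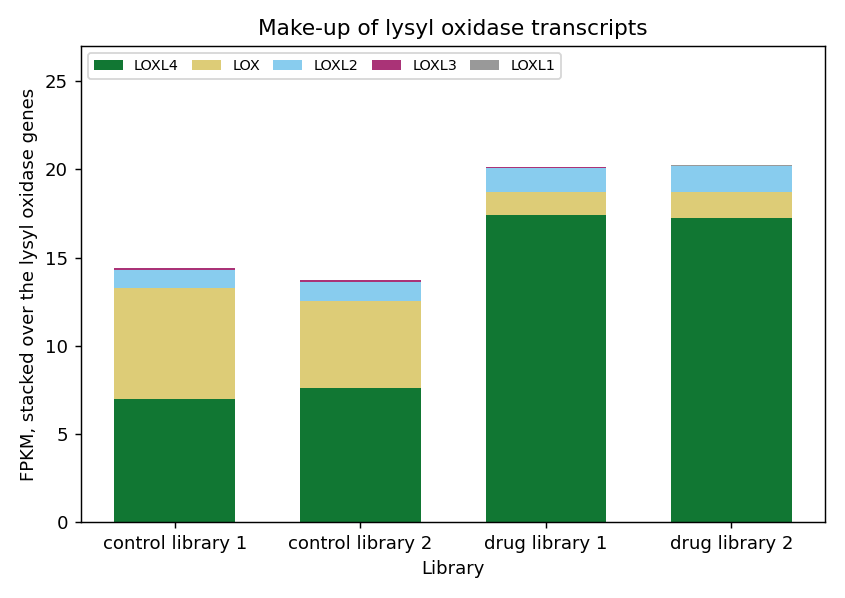
FPKM of the 5 lysyl oxidase genes stacked for each of the 4 libraries. The LOX segment shrinks from 6.31 and 4.94 to 1.30 and 1.44 FPKM and the LOXL4 segment grows from 6.96 and 7.62 to 17.4 and 17.3 FPKM, while the LOXL2 segment stays thin.

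Among the lysyl hydroxylases, PLOD2 hydroxylates the telopeptides of collagen and PLOD1 the helix, while PLOD3 also helps to build the sugars carried by hydroxylysine. PLOD2 (ENSG00000152952, chromosome 3, 146069440 to 146163653, minus strand) was at 3.95 and 3.47 FPKM in the controls against 2.41 and 2.54 FPKM with drug. Both drug libraries were below both controls, and the mean was 1.50-fold lower (3.71 ± 0.339 against 2.47 ± 0.0928 FPKM, log2(FPKM + 1) difference -0.44 ± 0.07 SE). PLOD1 (ENSG00000083444, chromosome 1, 11934205 to 11975538, plus strand) was the most abundant of the 10 genes, at 39.4 and 39.5 FPKM in the controls against 35.6 and 36.9 FPKM with drug. Its log2(FPKM + 1) difference was -0.12 ± 0.03 SE (95% interval -0.20 to -0.04), and limma did not call it. PLOD3 (ENSG00000106397, chromosome 7, 101205977 to 101218420, minus strand) was at 11.9 and 12.6 FPKM in the controls against 13.8 and 14.9 FPKM with drug, a difference of 0.20 ± 0.05 SE (95% interval 0.07 to 0.33) that limma did not call. With FPKM rescaled by TMM factors PLOD1 was called lower and PLOD3 was not called, and both directions stayed as given.

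The 3 hydroxylases together summed to 55.3 and 55.6 FPKM in the controls against 51.7 and 54.3 FPKM with drug, 0.956 times the control mean. PLOD2 made up 7.14% and 6.24% of that sum in the controls against 4.66% and 4.68% with drug. The share of PLOD3 was 21.6% and 22.8% in the controls against 26.6% and 27.4% with drug, and PLOD1 made up 67.9% to 71.3% over the 4 libraries. PLOD3 shares 429 exonic bases with ZNHIT1 on the opposite strand, a gene at 8.99 to 9.69 FPKM.

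SERPINH1 and CRTAP, both resident in the endoplasmic reticulum, went opposite ways by small amounts. SERPINH1 (ENSG00000149257, chromosome 11, 75562056 to 75572783, plus strand) was at 7.97 and 8.61 FPKM in the controls against 10.5 and 10.6 FPKM with drug. Drug libraries were above controls, with a mean 1.27-fold higher (log2(FPKM + 1) difference 0.31 ± 0.05 SE, 95% interval 0.19 to 0.43). CRTAP (ENSG00000170275, chromosome 3, 33113979 to 33147773, plus strand) was at 21.6 and 21.98 FPKM in the controls against 18.3 and 18.7 FPKM with drug. Drug libraries were below controls, with a mean 1.18-fold lower (difference -0.23 ± 0.03 SE, 95% interval -0.30 to -0.15).

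**Figure D4:**
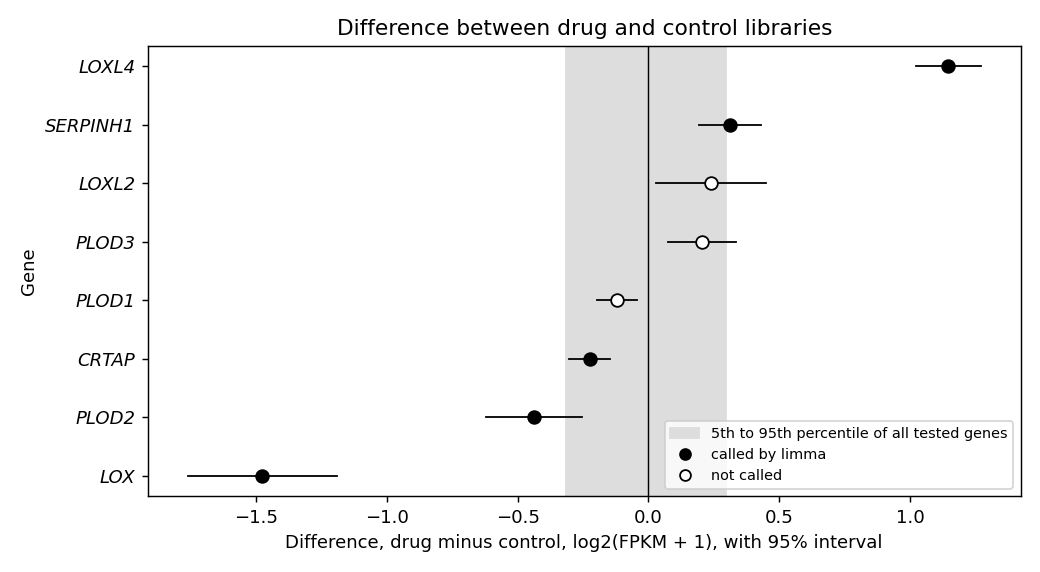
Difference between drug and control on the log2(FPKM + 1) scale for the 8 genes tested, with 95% intervals from limma, filled where called. The intervals are not adjusted for the number of genes tested and are no support for a difference. The grey band holds the 5th to 95th percentile of all tested genes (-0.31 to 0.30); LOX, PLOD2, SERPINH1 and LOXL4 lie outside it.

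Ordered by mean FPKM, control libraries ran PLOD1, CRTAP, PLOD3, SERPINH1, LOXL4, LOX, PLOD2, LOXL2, LOXL3 and LOXL1. No neighbours in that order overlapped between their 2 libraries. With drug LOXL4 was in place 3, between CRTAP and PLOD3, having been in place 5. LOX was in place 8, having been in place 6, and its 2 drug libraries overlapped those of LOXL2. Among all 26603 genes LOXL4 ranked at the 80.3 and 81.5 percentile in the controls against the 90.6 and 90.4 percentile with drug, and LOX at 79.0 and 75.9 in the controls against 61.8 and 62.2 with drug. In the authors' deposited table LOX is marked down (log2 fold change -2.07), LOXL4 up (1.21) and the other 8 genes stable, and 7 of the 10 have an adjusted p under 0.05 there.

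By pattern over the 4 libraries, measured as the distance between centred log2(FPKM + 1) values among 11219 other tested genes, the nearest to LOX was NDRG1 (distance 0.205). NDRG1, a hypoxia-induced gene, was at 6.88 and 6.26 FPKM in the controls against 1.98 and 2.09 FPKM with drug. SDS, the unnamed gene ENSG00000227706 and SCD followed, at up to 0.372. The nearest to LOXL4 were the unnamed gene ENSG00000202343 (0.0818) and LRP8 (0.112), then LGR5, GSTP1 and VIPR1 at up to 0.153. These distances rest on 4 libraries and are small where the difference between groups is of the same size on the log2(FPKM + 1) scale. That scale understates the change of low genes, so a small distance does not mean an equal fold change. ENSG00000202343 was at 0.260 and 0.384 FPKM in the controls against 1.84 and 1.72 FPKM with drug.

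Other genes of collagen production, and of what these enzymes depend on, were read from 7 lists, chosen with earlier results of these data known. Of 143 genes 129 were in the table and 75 were tested, of which 5 were higher and 22 lower by limma, against 7.78% higher and 6.02% lower among all tested genes. Most of the lower calls came from hypoxia-inducible factor targets.

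Collagen chain genes, the substrates, were expressed at low levels in these cells. Of 44 listed, 39 were in the table, and 34 of these were below 1 FPKM in both groups. Among the 34 was COL1A1, at 0.0856 and 0.0891 FPKM in the controls against 0.0220 and 0.0373 FPKM with drug. The 39 in the table summed to 13.9 ± 0.314 FPKM in the controls against 9.98 ± 0.0394 FPKM with drug. Of the 5 tested, 0 were called higher and 2 lower, with a median log2(FPKM + 1) difference of -0.21 against 0.04 for all tested genes. COL5A3, a minor fibrillar chain, fell from 5.86 ± 0.432 to 3.52 ± 0.166 FPKM (limma adjusted p = 0.00851, but 0.0518 without control library 2). COL5A2, which lies outside the rule for named genes, was at 1.48 and 1.51 FPKM in the controls against 0.831 and 0.911 FPKM with drug (limma adjusted p = 0.0411) and lost its limma call with any 1 library left out (adjusted p = 0.120 to 0.135).

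Of 17 tested genes of collagen modification and folding in the endoplasmic reticulum other than those above, 0 were called higher and 2 lower. Their median log2(FPKM + 1) difference was -0.05. P4HA1, a catalytic subunit of collagen prolyl 4-hydroxylase, fell from 36.4 ± 1.37 to 29.8 ± 1.14 FPKM (limma adjusted p = 0.0196), and SEC23A, a coat protein gene needed to export procollagen, fell from 35.7 ± 0.181 to 29.8 ± 0.293 FPKM (limma adjusted p = 0.00872). P4HA1 lost its limma call with any 1 library left out (adjusted p = 0.0508 to 0.0854), and SEC23A without control 1, control 2 or drug 1 (0.0528 to 0.0560). The partners of CRTAP, P3H1 (14.0 ± 0.451 to 13.5 ± 0.256 FPKM) and PPIB (66.4 ± 2.38 to 59.0 ± 3.45 FPKM), did not pass limma (adjusted p = 0.420 and 0.0860), and PPIB passed as lower with edgeR (adjusted p = 0.0247). FKBP10, which aids dimers of PLOD2, was at 50.6 ± 0.172 and 53.4 ± 1.80 FPKM and did not pass (limma adjusted p = 0.176). With edgeR 5 of 20 were lower and 0 higher, beside 7.22% lower and 5.76% higher among all genes it tested.

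Of 7 tested genes of procollagen processing and fibre assembly, limma called 1 higher and 0 lower. FN1, the fibronectin gene, rose from 126 ± 0.377 to 158 ± 3.42 FPKM (limma adjusted p = 0.00475, log2(FPKM + 1) difference 0.33 ± 0.03 SE) and kept its call with each library left out. BMP1, whose product cleaves procollagen and the LOX proenzyme, was at 1.95 and 1.73 FPKM in the controls against 1.83 and 1.99 FPKM with drug, so its groups overlapped (limma adjusted p = 0.780).

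Copper reaches lysyl oxidases through the importer SLC31A1, the chaperone ATOX1 and the Golgi pump ATP7A. Of 8 tested genes of this list, 0 were called higher and 2 lower. SLC31A1 fell from 28.2 ± 0.461 to 25.3 ± 0.344 FPKM (limma adjusted p = 0.0356, but 0.0953 to 0.140 with 1 library left out). SLC11A2, a metal transporter gene, fell from 19.7 ± 1.68 to 14.6 ± 0.165 FPKM (limma adjusted p = 0.0179, but 0.0754 without drug 1 and 0.0741 without drug 2). ATOX1 (5.09 ± 0.145 to 5.10 ± 0.0186 FPKM) and ATP7A (1.26 ± 0.0381 to 1.32 ± 0.0267 FPKM) did not pass (limma adjusted p = 0.970 and 0.796). Of 7 genes for the cofactors of the dioxygenases and for iron entry, 2 were called lower and 0 higher. IDH1, a source of 2-oxoglutarate, fell from 136 ± 0.830 to 99.9 ± 1.69 FPKM and the transferrin receptor gene TFRC from 132 ± 1.17 to 102 ± 1.75 FPKM (limma adjusted p = 0.00187 and 0.00381), and both kept their calls with each library left out.

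The hypoxia-inducible factor targets were mostly lower with drug. Of 19 tested, limma called 14 lower and 0 higher, beside 6.02% and 7.78% of all tested genes. Their median log2(FPKM + 1) difference was -0.28. The leading ones were NDRG1 (6.57 ± 0.436 to 2.03 ± 0.0803 FPKM), the stress gene DDIT4 (99.0 ± 1.17 to 55.6 ± 0.333 FPKM), the glycolysis regulator PFKFB4 (3.01 ± 0.413 to 1.32 ± 0.00254 FPKM) and the lipid droplet gene HILPDA (24.4 ± 1.86 to 14.9 ± 1.21 FPKM), with limma adjusted p between 0.000649 and 0.0108. With 1 library left out the count was 2 when control 1 was dropped, 7 for control 2, 4 for drug 1 and 6 for drug 2, and with the replicate number as a block it was 8. HILPDA lost its call without control 1 (adjusted p = 0.0505), and PFKFB4 without control 1, drug 1 or drug 2 (0.0501 to 0.0516). This list was chosen with lower hypoxia genes in these libraries known and is not independent evidence of their direction. P4HA1 is on it as well as among the modification genes.

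The transforming growth factor beta axis, which is known to induce LOX in many cells, did not move one way. Of 14 tested genes limma called 4 higher and 1 lower, beside 7.78% and 6.02% of all tested genes. Both drug libraries lay above both controls in 7 of the 14 and below them in 2. The receptor gene TGFBR2 rose from 24.2 ± 0.155 to 35.9 ± 0.563 FPKM and the regulator gene SKIL from 19.6 ± 0.642 to 25.1 ± 0.816 FPKM (limma adjusted p = 0.00152 and 0.0108). The third named riser, SMAD3, went from 11.2 ± 0.226 to 12.7 ± 0.297 FPKM (limma adjusted p = 0.0434, but 0.105 to 0.171 with 1 library left out). SKIL lost its call without control 1 or drug 2 (adjusted p = 0.0543 to 0.0600). TGFBI, outside the rule for named genes, was the other called riser, at 40.3 ± 0.446 FPKM in the controls against 44.4 ± 0.164 FPKM with drug (limma adjusted p = 0.0342, but 0.103 to 0.132 with 1 library left out). With TMM-scaled FPKM limma called 2 higher and 1 lower, and with any 1 library left out fewer of the 14 were called higher.

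**Figure D5:**
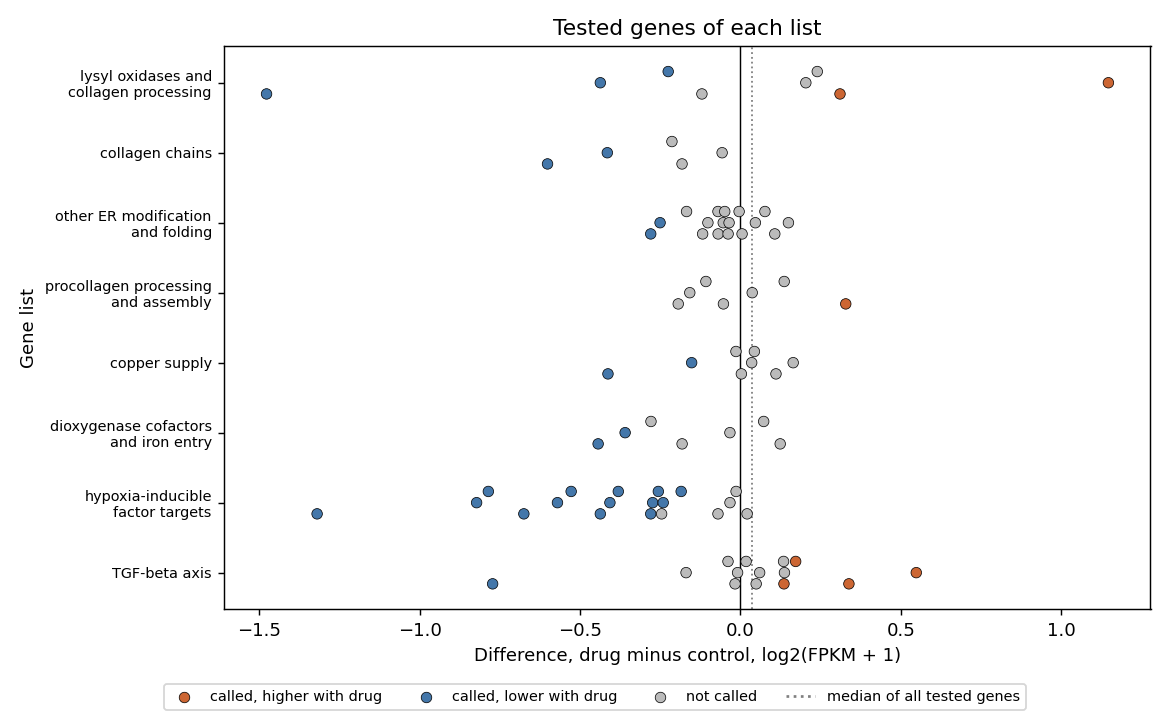
Difference between drug and control on the log2(FPKM + 1) scale for each tested gene of the described families (top row) and of the 7 lists, coloured where called by limma, with the median of all tested genes dotted at 0.04. The top row spans from LOX at -1.48 to LOXL4 at 1.15, and the hypoxia row holds 14 blue points and 0 orange ones.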

How the data were processed

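Per the labels' protocols, trizol RNA went into stranded TruSeq mRNA libraries. Per the submitters' processing notes the tool was bcl2fastq and the build hg38. An aligner, a counter and the tool behind the authors' test are among what is not given in the sources used here. As deposited by the authors, the table holds FPKM per library (unit identified from the values) and group means of size-factor-scaled reads, a signal. The log2 fold changes and p-values of the deposited table are the authors' own, per the file headers. Names and numbers tied columns to samples, and 0 sample columns were left unused.

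Whole reads were recovered from FPKM and group means (100% of values within 0.1 of a whole number); the recovery and the test were tested on simulated data. Every gene in the table has a control mean above 0, so genes read with drug alone are outside it. The test was limma 3.58.1 with a trend, run on log2(FPKM + 1) for the 11227 genes whose mean reached 1 FPKM in either group; p-values were adjusted by Benjamini-Hochberg and called under 0.05. The files held no deposited counts, so edgeR 4.0.16 (quasi-likelihood) and DESeq2 1.42.0 on recovered reads were alternatives, beside pseudocounts of 0.1 and 0.01, no filter, FPKM scaled by TMM factors, the replicate number as a block, and leaving out 1 library. Coordinates are from GENCODE 29.

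Members and lists were chosen with earlier results of these data known. Each list names up to 4 called genes with at least 2 FPKM and groups that do not overlap, by size of change. Genes named outside this rule, as background to a member's function, were chosen after their values were seen. Some genes that the rules would name are not reported here. R 4.3.3, Python 3.11.15, pandas 2.3.3 and matplotlib 3.10.9 were used.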

Additional observations from a re-analysis of the deposited data

How the results depend on the processing

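The 1549 genes called by limma became 384 without the filter (170 higher, 214 lower), 925 with the replicate block (474 higher) and 303, 375, 486 and 452 without control 1, control 2, drug 1 and drug 2, which is 115 to 221 higher and 188 to 274 lower. With TMM-scaled FPKM 549 were higher, and 43.1% of calls were higher, against 56.4%. With edgeR 1195 and with DESeq2 1222 were lower, with 44.4% and 46.0% of calls higher. The cause was not tested, except that no filter tests more genes and a left-out library leaves fewer samples, its lone partner being assumed to vary like the other group. Deviations of libraries with the same number correlated at 0.0278, so the numbers are not taken to pair the samples. With the block 5 members were called: LOXL4, PLOD3 and SERPINH1 as higher and LOX and CRTAP as lower. Without the filter LOX and LOXL4 were called. The direction of the 8 tested members and 22 named list genes did not reverse with TMM-scaled FPKM, edgeR or DESeq2. In the other runs it could not reverse, since the groups of these genes do not overlap. With TMM-scaled FPKM the rise in the lysyl oxidase sum moved by less than the spread (SD) between libraries. TMM scaling cannot change the LOXL4 share, and leaving out 1 of 2 libraries cannot move a group mean by more than that spread. Those runs are therefore no check on the sum or the share. No library was tested as an outlier with 2 a group, and at 4 to 23 reads a group LOXL1 and LOXL3 allow no statement on change.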
